A study of Mus musculus with 9 samples.

Results

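Cytosolic ribosomal protein genes were followed in mouse retinal macrophages before and after photoreceptor loss. The group was defined by gene symbol alone: all Rps and Rpl symbols with a number and at most a letter and a digit after it, plus Rplp0, Rplp1, Rplp2 and Rpsa. This gave 84 genes of the 27998 listed, 32 named for the small subunit and 52 for the large subunit. Of these, 83 were annotated as protein coding, and Rpl6l as a processed pseudogene.

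The cells came from female Arr1-/- mice, 2 to 5 months old, in which the arrestin gene of rods is deleted and steady light kills the photoreceptors. All groups shared this genotype and were reared in darkness, and the groups had 0, 7 or 20 days of room light of about 200 lux. Living CD45+ CD11b+ cells were sorted from the retina, and their transcripts were counted at the 3′ end with unique molecular identifiers (UMIs, 1 per captured molecule). Each time point had 3 libraries. The day 0 group had no light, and no animals with arrestin were among the samples, so days of light and loss of photoreceptors cannot be told apart. How the pooled animals were divided over libraries was not stated, so the spread between libraries may be technical.

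Each ribosome joins a small subunit, which reads the messenger RNA, to a large subunit, which forms the peptide bonds, and nearly all of their proteins are needed in equal number. Ribosomal protein mRNAs are among the most abundant in a cell, and many begin with a run of pyrimidines that ties their translation to growth signals through mTOR. Some members have a paralog that can take their place, and Rpl22 protein is known to hold down the RNA of its paralog Rpl22l1.

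Pyrimidine runs near the start are shown for 4 members that the results return to, in 30-base windows from RefSeq (GRCm38.p6, 5′ to 3′ on the strand of the gene). Capitals mark the longest run within 50 bases before or after the annotated start. Rps27 lies on the minus strand at chr3:90213631-90213660, and the other windows are on the plus strand, at chr1:39367825-39367854 for Rpl31, chr4:152325679-152325708 for Rpl22 and chr3:28805499-28805528 for Rpl22l1.
Rps27: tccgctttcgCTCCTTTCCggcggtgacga
Rpl31: tcgccacaCCTCTTCCTCCTCgcctccccg
Rpl22: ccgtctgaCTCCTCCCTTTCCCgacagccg
Rpl22l1: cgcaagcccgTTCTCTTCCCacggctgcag
The runs measured 9, 13, 14 and 10 bases in this order. Relative to the annotated RefSeq start they began at base −2, −18, −39 and 2. Those of Rpl31 and Rpl22 thus lay wholly before that start. Whether any of these runs begins the mRNA was not tested. Rpl22l1, the member with the lowest change at day 7, also has a run near its start. In the GENCODE annotation the Rpl22 gene lies at chr4:152325742-152334071, just beyond its window, which belongs to 1 of its RefSeq starts (the longest run at the other, at chr4:152324377-152324406, is 5 bases), and Rpl22l1 at chr3:28805436-28807424, which holds its window. The windows of Rps27 and Rpl31 span the GENCODE starts of these genes. RefSeq promoter windows matched 63 of the 84 members. A run of at least 8 pyrimidines within 50 bases before or after the start was present in 52 of these, 82.5%, against 39.3% of 27025 genes. The letters CCGGAAG, searched on both strands over 300 bases, were found in 41.3% of the matched members and in 9.93% of all genes. CTTTCC on the strand of the gene, near the start, was found in 30.2% and 5.43%, and TCTTTC, which can overlap it, in 25.4% and 4.53%. The letters AAGATGGC were found in 9.52% and 3.19%, and TATAAA in 7.94% and 4.05%. These matches describe letters only.

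Of 1365 different barcodes, 612 occurred in more than 1 library, so each barcode was assigned to the 1 library with its largest UMI total. Of the 851 cells kept, 736 had more UMIs from 26 myeloid markers than from any list of rod, other retinal, lens or lymphoid markers (day 0, 254; day 7, 284; day 20, 198). The myeloid markers held between 4.40% and 6.66% of the UMIs of each library. Rod markers held 0.117% to 0.689% at day 0 and at most 0.114% later, and lymphoid markers at most 0.0807%. Replicate 3 of each day was the smallest, with 55, 17 and 32 cells in order of days, against 71 to 194 elsewhere. The summed UMIs of the 736 cells ranged from 20443 in day 7 replicate 3 to 277725 in day 7 replicate 1.

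Members accounted for 225204 of 1121544 UMIs in these cells, or 20.1%. Single cells spread widely, from 2.53% to 54.3% with a median of 24.0%. Of the 84 members, 82 had a UMI and 77 had at least 1000. Rpl3l and Rpl10l had 0 UMIs, which allows at most 3 in these cells by counting error. These genes are known mainly from muscle and from testis. Rpl39l, also known from testis, had 5 UMIs, and Rpl7l1, a factor of large subunit assembly despite its name, had 95.

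The 6 most abundant members held 17.6% of the member UMIs. Among them were Rps29 and Rps27 of the small subunit and Rpl41, Rpl37a and Rpl13 of the large subunit. Rps29 led with 4.93% of them. The order of the members hardly varied: across 80 members, the Spearman correlation of levels between libraries was 0.834 to 0.984 over 36 library pairs, a description across genes that are not independent. The ratio of small to large subunit UMIs stayed between 0.701 and 0.772, and its mean was 0.744 ± 0.00407 (SD, n = 3 libraries) at day 0, 0.744 ± 0.0247 at day 7 and 0.746 ± 0.0390 at day 20. The stalk genes Rplp0, Rplp1 and Rplp2, whose proteins engage the elongation factors, held 3.94% to 4.87% of member UMIs.

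On average, the share of UMIs in members was lowest before light. In replicates 1 to 3 it was 16.9%, 16.0% and 13.2% at day 0, 25.7%, 25.6% and 14.6% at day 7, and 19.8%, 20.5% and 16.9% at day 20. The means were 15.4% ± 1.96, 22.0% ± 6.40 and 19.1% ± 1.91 (SD, n = 3 libraries each). The day 7 libraries overlapped those of day 0 through replicate 3, whereas the lowest day 20 library lay just under the highest of day 0. The difference between the means of days 7 and 0, 6.61 percentage points, was close to the SD at day 7, and that of days 20 and 0, 3.69 points, exceeded both SDs. No p is given for a sum over chosen genes.

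Cells with little ribosomal protein RNA were a larger part of the day 0 libraries than of all later ones but day 7 replicate 3. At day 0, 16.8%, 22.1% and 25.5% of the cells of the 3 libraries had under 10% of their UMIs in members. The values were 5.67%, 2.74% and 29.4% at day 7 and 4.23%, 8.42% and 12.5% at day 20. The median cell held 22.9%, 22.6% and 17.3% at day 0, 26.6%, 25.0% and 20.3% at day 7, and 24.2%, 25.9% and 16.3% at day 20. These medians lay closer together than the shares of the summed UMIs. Thinned to 500 UMIs, the median cell showed 46 to 53 members at day 0, 36 to 57 at day 7 and 46 to 56.5 at day 20. The thinning left out 5 to 23 cells of a library, and without it the medians were 60 to 72 members.

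**Figure D1:**
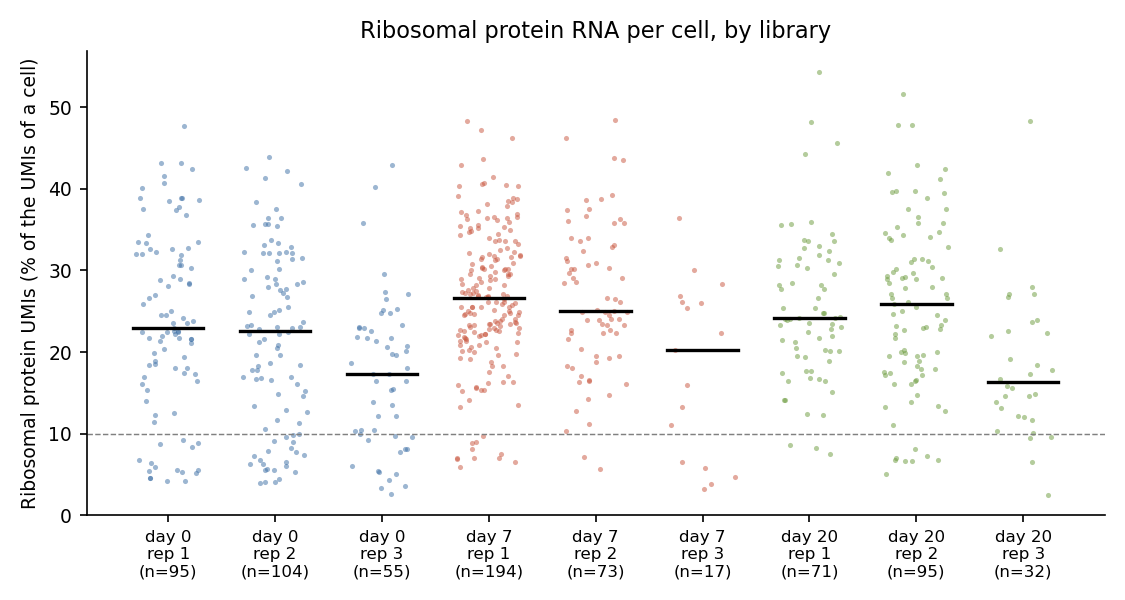
Each point is 1 of 736 myeloid cells, placed by library on the horizontal axis and by the percent of its UMIs in ribosomal protein genes on the vertical axis; black bars are medians, colors are days and the dashed line marks 10%. Cells under the line made up 16.8% to 25.5% of the day 0 libraries, and the medians of replicate 3 (17.3%, 20.3% and 16.3%) are the lowest of their day.

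At day 0, most cells with a low share in members carried many immediate-early transcripts. Of the 53 day 0 cells under 10%, 41 had at least 4% of their UMIs in the immediate-early list and 4 had under 1%. At day 7 it was 1 and 8 of 18 such cells, and at day 20 7 and 5 of 15. This list holds 18 genes such as Fos, Jun and Egr1, transcription factors and regulators that cells induce within minutes of a stimulus. Its share of the UMIs was 4.19%, 4.47% and 5.30% at day 0, 0.565%, 0.328% and 0.719% at day 7, and 2.63%, 1.63% and 0.962% at day 20. Across cells of a library, the Spearman correlation between the immediate-early share and the share in members was negative in all 9 libraries, from −0.73 to −0.19. Both are shares of the same cell total, so this is a description. The split of cells described next was chosen after seeing the data.

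Cells with at least 4% immediate-early UMIs numbered 52 before light, 1 after 7 days and 8 after 20 days. The 174 day 0 cells under 1% held 176080 UMIs and the 28 between held 34278, whereas the 52 cells held 236665. Summed over day 0, more UMIs thus came from these 52 cells than from all others, so summed day 0 values are not those of the typical cell. The share in members of these 52 cells was 7.92% to 9.45% in the 3 libraries, and their median depth was 3559 to 6975 UMIs. Day 0 cells with under 1% immediate-early UMIs held 25.9%, 26.0% and 19.8%, at a median depth of 777 to 846 UMIs. The groups thus differed in depth as well, and the part of depth in the difference was not tested. Malat1, a nuclear RNA, also moved with it: its correlation with the share in members lay between −0.65 and 0.04.

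Nearly all members took part in this difference. In 79 of 81 members the level at day 0 was lower in the cells with at least 4% immediate-early UMIs than in those under 1%, in all 3 libraries, against 37% of 1360 genes. The median log2 difference was −1.50 over the 80 members with enough UMIs for a ratio, and the lowest was −2.13, in Rpl6l. In counts per 1000000 UMIs of the cells summed (CPM), Rps29 went from 13227 to 3249 in replicate 1, from 14367 to 4824 in replicate 2 and from 9159.8 to 3013 in replicate 3. The exceptions were Rpl7l1, with 13 and 18 UMIs in the groups, and Rpl22l1. Rpl22l1 was higher in the cells with at least 4%, by 0.50 on the log2 scale, with 725, 599.7 and 535 CPM against 424, 562 and 251 CPM in replicates 1 to 3. The share of all genes that were higher in all 3 libraries was not counted. CPM are parts of a total, so other genes rise on this scale where the members fall. The part of this in the Rpl22l1 value was not tested.

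**Figure D2:**
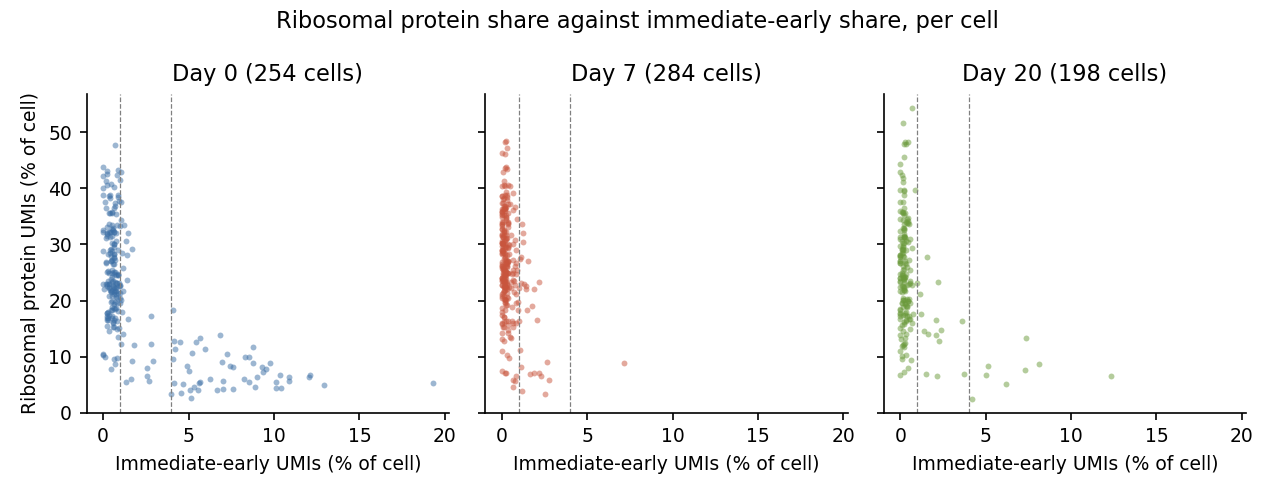
Each point is a myeloid cell, with the percent of its UMIs in 18 immediate-early genes on the horizontal axis and in ribosomal protein genes on the vertical axis, in 1 panel per day; dashed lines mark 1% and 4%. The 52 day 0 cells beyond the 4% line hold little ribosomal protein RNA, and only 1 day 7 cell and 8 day 20 cells lie there.

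Among the 606 cells under 1% immediate-early UMIs, the share in members differed little between days. It was 25.9%, 26.0% and 19.8% at day 0, 26.4%, 26.4% and 17.5% at day 7, and 26.7%, 26.8% and 18.4% at day 20. The means were 23.9% ± 3.53, 23.5% ± 5.13 and 24.0% ± 4.81 (SD, n = 3 libraries each), so the days differed by far less than the libraries of a day.

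What remained in these cells was replicate 3 of each day, which lay 6.07 to 8.88 percentage points under the lower of the other libraries of its day. Over all 736 cells, 52 of 81 members were lowest in replicate 3 at each of the 3 days, against 10.7% of genes, and in cells under 1% immediate-early UMIs it was 59 of 81, against 10.2%. For 0 of 81 members was replicate 3 highest at each day. The labels give no batch for the replicate numbers. Over all 736 cells, replicate 3 also had the highest share of mitochondrial UMIs of each day (1.97%, 3.16% and 2.09%, against 1.34% to 1.96% in the others). In cells under 1% immediate-early UMIs this did not hold at day 20, where replicate 1 had 2.32% and replicate 3 had 2.04%. The 26 markers of other retinal cells held 0.258%, 0.406% and 0.352% of the UMIs in replicate 3, the highest of each day, against 0.109% to 0.179% in the others, with 16 to 19 of them detected in replicate 3 and 11 to 20 in the others. The part of these measures, and of the small number of cells, in the lower share was not tested.

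**Figure D3:**
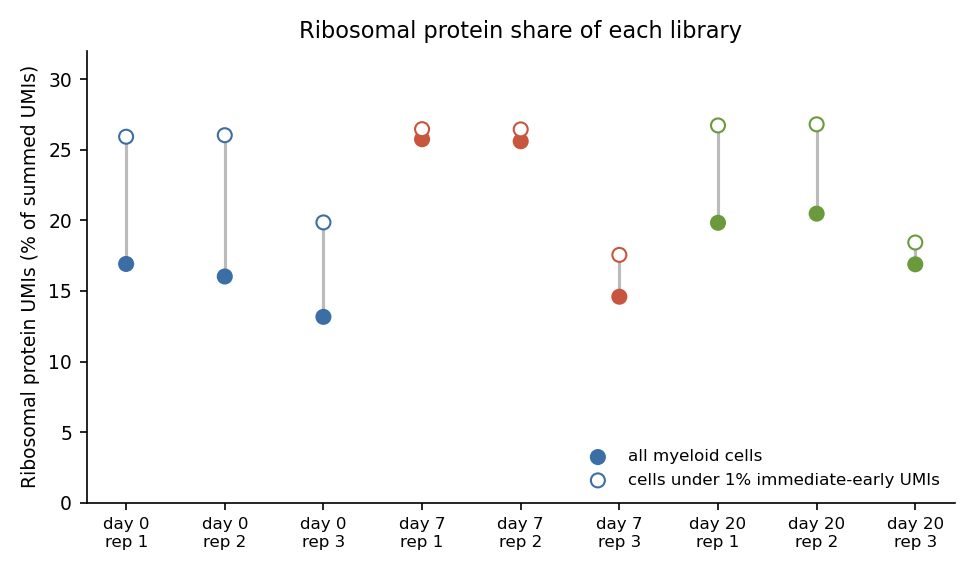
Filled points give the percent of summed UMIs in ribosomal protein genes for all myeloid cells of a library, and open points the same for cells under 1% immediate-early UMIs; colors are days. The open points of replicates 1 and 2 lie between 25.9% and 26.8% at every day, and those of replicate 3 between 17.5% and 19.8%.

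To test single members between days, UMIs were summed per library over the 736 cells and fitted with edgeR's quasi-likelihood test, with Benjamini-Hochberg adjustment over all 1360 genes tested (adjusted p under 0.05). Of the 84 members, 81 passed the filter on low counts. At day 7 compared with day 0, 24 members rose and 0 fell, against 10.1% of all genes that rose and 16.2% that fell. The median log2 change was 0.66 over the members tested and −0.06 over all genes. Of the members, 49 had an unadjusted p under 0.05 (edgeR), as did 536 of all 1360 genes. All members but Rpl22l1 had a positive change.

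The largest increases were in Rpl22, Rpl32, Rps20, Rpl31 and Rpl41. Rpl22, an RNA-binding protein of the large subunit, had 697, 692 and 470.1 CPM at day 0 and 1177, 1482 and 783 CPM at day 7, without overlap (log2 change 1.03 ± 0.30 SE, adjusted p = 0.0206, edgeR). Rpl41, the smallest ribosomal protein, rose from 4154, 3644 and 3126 CPM to 7500.2, 7548 and 4647 CPM, also without overlap (0.97 ± 0.25, adjusted p = 0.0111, edgeR). Rpl31, which lies near the exit of the peptide tunnel, rose from 1315, 974 and 678 CPM to 1901, 1909 and 1565 CPM (0.98 ± 0.33, adjusted p = 0.0407, edgeR).

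In Rpl32 and Rps20 replicate 3 of day 7 lay within the range of day 0. Rpl32, of the large subunit, had 2716, 2785 and 2055 CPM at day 0 and 5631, 5877 and 2348 CPM at day 7 (1.01 ± 0.30, adjusted p = 0.0249, edgeR). Rps20, of the head of the small subunit, had 1187, 1129.7 and 678 CPM and then 2106, 2208 and 1076 CPM (1.00 ± 0.33, adjusted p = 0.0377, edgeR). Over all members, 18 had day 7 libraries wholly above those of day 0 (12.6% of all genes did), and 13 of these passed the test.

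Among the other members known for roles beside translation, Rpl11, which with 5S RNA and Rpl5 can bind the p53 regulator Mdm2, rose by 0.91 (adjusted p = 0.0206, edgeR). Rpl5 itself did not pass the test (0.59, adjusted p = 0.221, edgeR). Neither did Rps6, the target of S6 kinase (0.39, adjusted p = 0.294, edgeR), or Rpsa, also known as the laminin receptor (0.60, adjusted p = 0.121, edgeR). The stalk genes gave 0.60 for Rplp0, 0.24 for Rplp1 and 0.64 for Rplp2, with adjusted p from 0.0575 to 0.576 (edgeR). Of the 6 most abundant members, Rps27, Rpl41 and Rpl37a passed, whereas Rps29 did not: it had 8192, 8376 and 5739 CPM at day 0 and 12664, 12530.5 and 5968 CPM at day 7 (0.60 ± 0.29, adjusted p = 0.131, edgeR). In Rps29, replicates 1 and 2 of day 7 lay far above day 0 and replicate 3 lay among its values.

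These calls depended on the cells and on single libraries. In cells under 1% immediate-early UMIs, 0 of 80 members passed (edgeR, 1 at an unadjusted p under 0.05) against 4.83% of 890 genes that rose. Of these genes, 204 had an unadjusted p under 0.05. The median change of the members was 0.13. In a setting called filtered barcodes as deposited, shared barcodes counted in every library that held them. Libraries of that setting therefore cannot be taken as independent replicates. The same limits on genes, mitochondrial UMIs and myeloid markers applied. There 0 of 81 passed (edgeR), where 1.37% of genes rose. Of the members 37 had an unadjusted p under 0.05 (median change 0.41), as did 561 of 2622 genes. With all cell types the rule keeps it was also 0 (30 unadjusted, median 0.74), where 2.52% of genes rose and 531 of 2103 genes had an unadjusted p under 0.05 (edgeR). Without day 7 replicate 3, the library of 17 cells, 77 of 81 rose (13.1% of genes did). Without day 0 replicate 2 or 3, 0 rose, where 56 of 1503 and 73 of 2090 genes did. With day 7 replicate 1 or 2 left out, 0 rose as well, where 70 of 1536 and 58 of 1978 genes did. Without day 0 replicate 1, 3 rose (62 of 1504 genes did), and without day 20 replicate 1, 4 rose (109 of 2136 genes did). Both counts were near the share of all genes. With day 20 replicate 2 or 3 left out, 17 and 21 rose (117 of 1530 and 172 of 1986 genes did).

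At day 20 compared with day 0, 0 of 81 members passed the test (edgeR, 3 at an unadjusted p under 0.05, and 0 with DESeq2), against 1.18% of all genes that rose and 1.76% that fell. Of all 1360 genes, 215 had an unadjusted p under 0.05 (edgeR), a larger part than of the members. The median change of the members was 0.33. In 33 members the day 20 libraries lay wholly above those of day 0, against 12.3% of all genes. The largest values were in Rpl12 (0.69 ± 0.29), Rpl7a (0.62 ± 0.27) and Rps26 (0.58), with adjusted p from 0.246 to 0.358 (edgeR). Rpl12, of the base of the stalk, had 691, 744 and 514 CPM at day 0 and 1043, 1304 and 756 CPM at day 20. The lowest were in Rpl22l1 (−0.30), Rpl7l1 (−0.11) and Rpl13 (−0.06). Both comparisons share the day 0 libraries.

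At day 20 compared with day 7, 0 of 81 members passed (edgeR, 8 at an unadjusted p under 0.05, and 0 with DESeq2), against 1.03% of genes that fell and 4.04% that rose. Of all 1360 genes, 223 had an unadjusted p under 0.05 (edgeR), a larger part than of the members. The median change of the members was −0.35. In 4 of 81 members, Rpl24, Rpl18, Rpl30 and Rpl15, the day 20 libraries lay wholly below those of day 7. This is near the 5.15% of all genes for which that held. The lowest values were in Rpl30 (−0.66, adjusted p = 0.252), Rpl24 (−0.64, adjusted p = 0.203) and Rps20 (−0.64, adjusted p = 0.351, all edgeR), and the highest in Rpl12 (0.09), Rpl3 (0.08) and Rpl22l1 (0.06). Without day 7 replicate 3, 18 members fell (2.7% of genes did), Rpl24 among them (−0.85, adjusted p = 0.0426, edgeR).

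**Figure D4:**
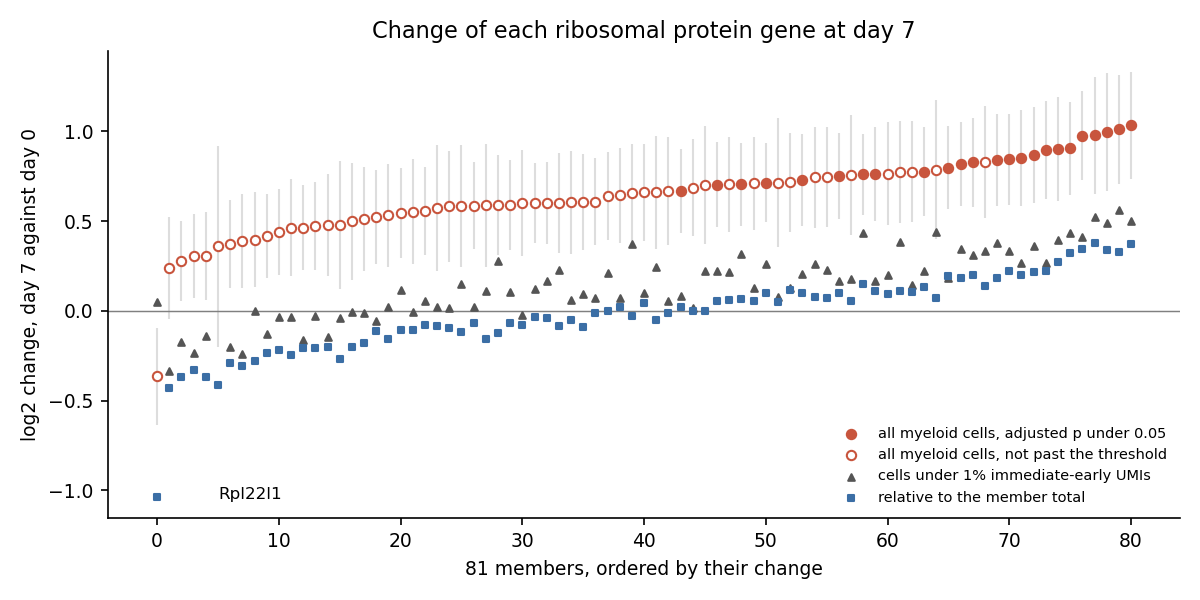
The 81 members tested are ordered on the horizontal axis by their log2 change between day 0 and day 7 (circles with SE; filled where the adjusted p is under 0.05). Triangles give the change in cells under 1% immediate-early UMIs and squares the change relative to the total of all members. Circles are centered on 0.66, triangles on 0.13 and squares, by construction, on 0, with Rpl22l1 apart at −1.03.

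Rpl22l1 was the only member tested with a negative change at day 7. It had 563, 604 and 415 CPM at day 0, 364, 398 and 391 CPM at day 7 and 471, 416 and 391 CPM at day 20. All day 7 libraries lay below all day 0 libraries, as in 26% of genes, but the change did not pass the test (−0.37 ± 0.27 SE, adjusted p = 0.346, edgeR). Measured against the total of all members instead of the library, Rpl22l1 was the only one of 81 members called (−1.03 ± 0.29, adjusted p = 0.0160, edgeR), on a scale where 30.4% of all genes were lower. On this scale the median of all genes was −0.79, and the members center on 0 by construction, because their own sum is the library size. The other 80 members lay within 0.5 of 0, up to 0.38 in Rpl31. With each of the 9 libraries left out in turn, the value stayed between −1.21 and −0.84, and 5 of the 9 fits kept the call (adjusted p 0.00345 to 0.140, edgeR). The call was lost without day 0 replicate 1 or 2 and without day 7 replicate 1 or 2.

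Rpl22l1 was also a larger part of its pair with Rpl22 at day 0 than later. Rpl22l1 made up 44.7%, 46.6% and 46.9% of the UMIs of the pair at day 0, 23.6%, 21.2% and 33.3% at day 7, and 31.4%, 32.8% and 38.5% at day 20. Day 0 did not overlap with either later day. The means were 46.1% ± 1.22, 26.0% ± 6.44 and 34.2% ± 3.75 (SD, n = 3), and the two-sided exact permutation test over libraries gave p = 0.1 for day 0 against each later day, the smallest p that 3 against 3 allows. Days 7 and 20 overlapped (exact permutation p = 0.3). In these same libraries Rpl22 had the largest and Rpl22l1 the lowest change at day 7, and no other pair was tested. These p values are therefore no independent evidence. The 95% Wilson interval, which covers counting error only, was widest in day 7 replicate 3, from 18.0% to 53.3% on 8 of 24 UMIs. The mature RNAs were 76.8% identical over 285 aligned bases.

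The day 0 UMIs of the pair were then divided by cell. These are the same UMIs, so the division is no independent support for the difference between days. In the day 0 cells with at least 4% immediate-early UMIs, Rpl22l1 was 62.2% of the pair (95% Wilson interval 55.9% to 68.1%, 148 UMIs). In those under 1% it was 30.4% (25.1% to 36.2%, 78 UMIs). These values sum 3 libraries, and the intervals cover counting error only. At 4% or more, day 0 replicates 1 to 3 had 54, 67 and 27 Rpl22l1 UMIs and 26, 51 and 13 of Rpl22. In the 8 day 20 cells with at least 4%, Rpl22l1 was 53.1% of the pair (36.4% to 69.1%). In cells under 1%, the libraries had 28.0%, 33.6% and 26.5% at day 0, 23.8%, 22.3% and 30.4% at day 7, and 25.3%, 29.0% and 37.8% at day 20, all days overlapping (exact permutation p = 0.3 for day 0 against day 7). There the change of Rpl22l1 against the member total was −0.07 (adjusted p = 0.939, edgeR). In the filtered barcodes as deposited, the pair had means of 41.7% at day 0, 31.7% at day 7 and 36.5% at day 20. There day 0 overlapped with day 20 (exact permutation p = 0.3). The lowest day 0 library (39.20%) lay barely above the highest day 7 library (39.13%), and their Wilson intervals overlapped. With all cell types the rule keeps, the means were 45.9%, 25.1% and 38.2%, and day 20 replicate 3, at 47.8%, lay above every day 0 library (exact permutation p = 0.4).

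**Figure D5:**
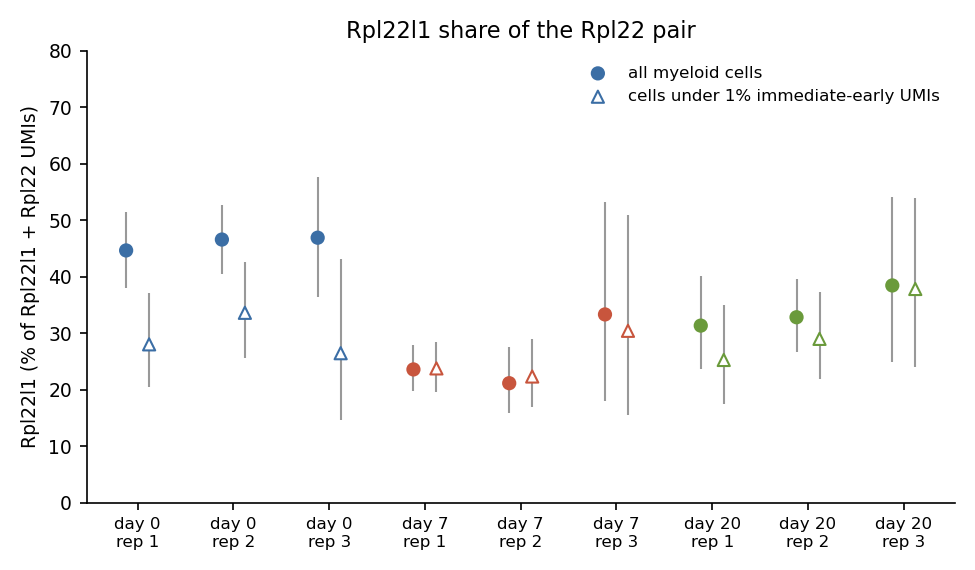
Points give Rpl22l1 as a percent of the UMIs of Rpl22l1 and Rpl22 in each library, with 95% Wilson intervals; filled circles are all myeloid cells and open triangles cells under 1% immediate-early UMIs, and colors are days. The filled day 0 points (44.7% to 46.9%) lie above all later ones, while the open ones overlap.

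Other paralogs made up smaller shares, or could not be separated. Rps27l, a paralog of Rps27 known as a p53 target, made up 2.31% to 5.38% of its pair over the libraries, and its change at day 7 did not pass the test (0.71, adjusted p = 0.156, edgeR). Rpl7l1 was at most 8.47% of its pair with Rpl7, and Rpl39l at most 0.488% of its pair with Rpl39. Rpl6l held 25.8% to 31.8% of its pair with Rpl6. Its annotated RNA is 98.7% identical to that of Rpl6 over 871 bases, so the division of UMIs between the members of this pair is uncertain. Beyond the rule, 18 symbols held 17616 UMIs, 7.82% of the number in members, and may hold reads of members. Most are near copies such as Rps27rt (4410 UMIs) and Rpl10-ps3 (2910 UMIs), and 16 had a UMI. They include Rpl36al (601 UMIs), a ribosomal protein gene.

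After light the study distinguished macrophages with MHC class II, the antigen presenting molecules of activated and monocyte-derived cells. In the 6 libraries of days 7 and 20, 143 of 402 cells with at least 500 UMIs had at least 0.4% of their UMIs in Cd74, H2-Aa, H2-Ab1 and H2-Eb1. This is a division of a range, not a cell type, and 123 cells lay near it. Cells above and below it held 25.3% and 26.1% of their UMIs in members in day 7 replicate 1, 27.6% and 24.8% in replicate 2, and 12.1% and 15.6% in replicate 3. At day 20 the values were 22.0% and 17.9%, 15.7% and 20.6%, and 12.96% and 18.5%. In summed UMIs the side that was higher thus differed between libraries. By the median cell, the side above the division was lower in each day 20 library. There the medians were 20.3% and 24.2%, 18.8% and 27.2%, and 12.6% and 18.8%, above and below it. At day 7 they were 26.3% and 27.0%, 29.4% and 24.7%, and 13.5% and 12.2%. These medians were not tested.

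With the library as a block, 0 of 78 members passed between these cells (edgeR, 2 at an unadjusted p under 0.05, and 0 with DESeq2), against 0.366% of 273 genes that were lower and 0% that were higher. Of these genes, 31 had an unadjusted p under 0.05 (edgeR). The median difference of the members was 0.02. The largest values were in Rps9 (0.37), Rpl5 (0.34) and Rpl36 (0.32) and the lowest in Rpl7a (−0.31), Rps26 (−0.25) and Rps20 (−0.24), with adjusted p from 0.261 to 0.785 (edgeR). As 78 of the 273 genes were members, the TMM scaling rests in part on the members themselves. With library totals in place of TMM their median was −0.05. With no filter on low counts it was −0.43, where the median of all genes was −0.50. In the filtered barcodes as deposited, 35 of 81 members were higher in the MHC class II cells (13.5% of 1079 genes were), Rps9 and Rpl36 among them. Shared barcodes enter several libraries in that setting, so its libraries cannot be taken as independent replicates.

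Genes that work with the ribosome were read from lists made for this purpose. Of 19 tested genes of proteins fused to, bound to or serving the ribosome, 4 rose at day 7 and 0 fell, with a median of 0.64. Of all genes tested, 10.1% rose and 16.2% fell. Naca, of the complex that meets the nascent peptide, rose from 648, 609 and 601 CPM to 1181, 1183 and 1174 CPM (1.04 ± 0.25, adjusted p = 0.00715, edgeR), and replicate 3 did not stand apart. Rpl36al, a ribosomal protein whose symbol the rule does not take, rose by 0.91, and Fau, whose product releases the ribosomal protein S30, rose by 0.81. Tpt1 (0.65), Gnb2l1, which encodes the scaffold Rack1 (0.56), and the elongation factor gene Eef1a1 (0.36) did not pass, with adjusted p of 0.0633, 0.205 and 0.383 (edgeR). In cells under 1% immediate-early UMIs, 0 of 19 passed (4.83% of genes rose), and without day 7 replicate 3, 13 of 20 rose (13.1% of genes did).

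Factors that start translation were called at rates near those of all genes, of which 10.1% rose at day 7 and 16.2% fell. Of 16 tested, Eif3m rose at day 7 (1.06) and Eif4g2 (−0.92), Eif4a1 (−0.93) and Eif5 (−1.74) fell (adjusted p 0.0105 to 0.0417, edgeR), and the median was −0.08. Of 6 tested genes of ribosome assembly, the rRNA methyltransferase Fbl fell (−1.48, adjusted p = 0.0279, edgeR) and 0 rose, which is also near the share of all genes that fell. Of 6 tested regulators of ribosome production and the stress response of translation, 4 fell: Ppp1r15a, which restores initiation after stress (−3.42), Atf4 (−2.58), Cdkn1a (−1.79) and the kinase gene Rps6ka1 (−1.76), with adjusted p from 0.000548 to 0.0321 (edgeR). The regulator Myc had 23 UMIs and was not tested. Of 7 tested mitochondrial ribosomal protein genes, Mrpl30 (1.36) and Mrpl23 (1.34) rose, and Mrpl30 was lower at day 20 than at day 7 (−1.80, adjusted p = 0.0231, edgeR). In cells under 1% immediate-early UMIs, 0 of 6 mitochondrial genes rose (median −0.10, against 0.36 in all cells), 0 of 12 initiation genes rose and 1 fell, 0 of 4 assembly genes passed, and 0 regulators were tested. Of all 890 genes tested there, 43 rose and 59 fell.

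At day 20 compared with day 0, 0 genes of these 5 lists passed, against 1.18% of all genes that rose and 1.76% that fell. At day 7, 17 of 18 immediate-early genes fell, as did 5 of 5 rod genes tested, while 4 of 4 MHC class II genes rose. Of all genes tested, 16.2% fell and 10.1% rose. Of 9 genes of resting microglia, 8 fell and Fcrls rose. Of 7 heat shock genes, 5 fell and 1 rose. Without day 7 replicate 3 only 2 of 8 fell (265 of 2037 genes did), and in cells under 1% immediate-early UMIs 0 of 4 did (59 of 890 genes did).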

How the data were processed

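Per the labels, retinal CD45+ CD11b+ cells of 9 libraries (3 per day) were made with 10x 3′ version 2 chemistry and processed by the authors with Cell Ranger on mm10 (version not given in the sources used here). The deposited matrices hold raw UMI counts per gene and barcode, not normalized. Titles give hours and treatment labels days, and days were used. The libraries held 247290 to 441678 UMIs.

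A barcode counted as a cell in the library with its highest total, if it showed 200 or more genes and fewer than 10% of its UMIs were mitochondrial. No doublet caller was run. Marker lists chose the myeloid cells. The members and lists were chosen with earlier results of these data known. The immediate-early split and the look at replicate 3, Malat1 and promoter letters were chosen after seeing the data. So were the reading of Rpl22l1 against the member total and the tests of its pair with Rpl22. Counts were summed per library and fitted with edgeR 4.0.16 (TMM, filterByExpr, all 9 libraries in 1 fit, Benjamini-Hochberg, 0.05), with DESeq2 1.42.0 as an alternative, in R 4.3.3. The fit was tested on simulated data in which randomly chosen genes changed in both directions. A joint shift of many abundant genes such as the members was not simulated. Named members were the 6 most abundant, those called (at most 5 per direction) or the 3 most changed, paralogs and members with 0 UMIs; Rpl11, Rpl5, Rps6, Rpsa, the stalk genes, Rpl18 and Rpl15 were added after their values were seen. CPM are UMIs per 1000000 of a library's summed cells. UMIs count molecules, so levels were not divided by gene length. Protein sequences were not used here. Some genes that the naming rule takes are not reported here.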

Additional observations from a re-analysis of the deposited data

How the results depend on the processing

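The number of members that rose at day 7 (24 of 81, where 137 of 1360 genes rose) moved most. It was 0 in the filtered barcodes as deposited, in all cell types the rule keeps, in cells under 1% immediate-early UMIs and with no filter on low counts. In these settings 36 of 2622, 53 of 2103, 43 of 890 and 94 of 13006 genes rose. It was 6 with library totals in place of TMM, where 83 of 1360 genes rose, a similar share. There the median of all genes shifted to −0.18 and that of the members to 0.54. With the replicate number as a block it was 38, where 141 of 1360 genes rose. The labels give no shared source for a number. Deviations of same-numbered libraries correlated between −0.0617 and 0.146, which does not meet the criterion for a pairing (other pairs, −0.135 to 0.120), and 3 of 9 libraries correlated best with their own number. With the members as library size, 1 was called, lower, as were 413 of 1360 genes. Leaving out 1 library each gave 0 to 77, where 56 to 267 of 1503 to 2136 genes rose. DESeq2 gave 21, where 97 of 1360 genes rose. Minimum depths or a lower mitochondrial limit gave 18 to 30, where 109 to 145 of 1363 to 1440 genes rose. At day 20 compared with day 7, leaving out 1 library gave 0 to 18 members called, all lower, where 2 to 55 of all genes fell. For MHC class II, the filtered barcodes as deposited gave 35 in place of 0, where 146 of 1079 genes were higher, and the cause was not tested. The libraries of that setting share barcodes and are not independent replicates. The mean share of members differed between day 7 and day 0 by 6.61 percentage points, and by −0.451 in cells under 1% immediate-early UMIs. For day 20 and day 0 the difference was 3.69, 1.73 in the filtered barcodes as deposited and 0.0484 in cells under 1%. Of the values for the members named by the rule (64 results) under all alternatives, 1158 kept their side of the threshold, 93 lost the call, 20 gained it and none was called in the other direction. Results that were never called and stayed so are among those kept, so this count does not measure how stable the calls were. In single settings up to 8 results lost the call, as in cells under 1% immediate-early UMIs. With 17 to 194 cells per library, changes of members with under 100 UMIs could hardly be read.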

Other observations

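The share of UMIs in ribosomal protein genes was higher in the sum of myeloid cells than in that of the rod or other retinal cells that passed the filters, but the ranges of single cells overlapped. It was 20.1% in 736 myeloid cells, 8.51% in 76 cells led by rod markers (66 of them from day 0) and 6.42% in 35 cells led by other retinal markers. Single cells ranged from 2.53% to 54.3%, from 2.15% to 21.1% and from 1.91% to 36.2%, at median depths of 917, 1137 and 576 UMIs. The 3 cells led by lens markers held 6.62% and the 1 lymphoid cell 23.3%. Of the barcodes outside the filters, 458 under 200 detected genes held 20.2% of their summed UMIs in members, close to the myeloid cells. Their median barcode held 16.9%, against 24.0% in the myeloid cells, at a median depth of 246 UMIs. The 3657 entries with more UMIs in another library held 18.3% of their summed UMIs in members, and the 56 over the mitochondrial limit 10.6%. These are descriptions of cells within libraries, with no test.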
